A study of Mus musculus with 2 samples.

Results

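The 10 genes described here encode writers, partners and readers of histone H3 lysine 9 methylation, and the mark itself, H3K9me3, was mapped by ChIP-seq. The genes were chosen by name and not by a cut on a measured value, but with earlier results of these data known. They are 10 of 21887 RefSeq protein-coding genes on the assembled chromosomes of mm10, and each was examined with 50 kb of flanking sequence on either side. The samples were 2 biological replicates of E14TG2a.4, a male mouse embryonic stem cell line of strain 129/Ola labelled as embryonic stage with an age of 3.5 day, and they form 1 group with no second condition. Both replicates derive from the same line and donor. A control experiment that the labels point to was not used here. The data were the authors' lists of peaks, so read depth is unknown, and every fold enrichment below is the authors' own value for a peak. In mm10, where peaks were narrow, there was a list for each replicate, a pooled list and a replicated list, and in mm9, where regions were wide, a list for each replicate and a list of the whole series. Peaks of a silencing mark give no expression level, so whether the genes were active, and whether the cells carried stem cell markers, was not measured.

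H3K9me3 is laid down by a small set of methyltransferases. Setdb1 acts in embryonic stem cells largely on endogenous retroviruses, where the corepressor Trim28 is recruited by KRAB zinc finger proteins, and Atf7ip binds Setdb1 and keeps it in the nucleus. Suv39h1 and Suv39h2 methylate pericentromeric repeats, Ehmt2 (G9a) and Ehmt1 (GLP) form a dimer that makes the mono- and dimethyl states, and Cbx1, Cbx3 and Cbx5 are the HP1 proteins, whose chromodomain binds methylated H3K9. Atf7ip and Trim28 are therefore neither writers nor readers themselves, but partners of a writer.

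The mark lay on 1 of the 10 genes, Atf7ip, and on the other 9 no peak was called on the gene body or at the promoter in any list. Of all protein-coding genes, 30.8% had a replicated mm10 peak on the body and 5.54% a shared mm9 region at the promoter. The promoter count, 1 of 10, thus stood near the background. Atf7ip was marked at its start site and over a long stretch upstream of it. Around Setdb1 the mark was strong but stood outside the gene, while Suv39h1 and Ehmt2 had no peak within 50 kb. The promoter sequences of Atf7ip, of Setdb1, the enzyme it binds, and of Trim28, the other partner, are shown because they carry this contrast. Each runs 5′ to 3′ from 250 bases before to 50 bases after a RefSeq start site (GRCm38.p6), and capitals mark CpG dinucleotides. The windows are chr6:136518601-136518900 on the plus strand for Atf7ip, chr3:95357153-95357452 on the minus strand for Setdb1 and chr7:13023902-13024201 on the plus strand for Trim28.
Atf7ip: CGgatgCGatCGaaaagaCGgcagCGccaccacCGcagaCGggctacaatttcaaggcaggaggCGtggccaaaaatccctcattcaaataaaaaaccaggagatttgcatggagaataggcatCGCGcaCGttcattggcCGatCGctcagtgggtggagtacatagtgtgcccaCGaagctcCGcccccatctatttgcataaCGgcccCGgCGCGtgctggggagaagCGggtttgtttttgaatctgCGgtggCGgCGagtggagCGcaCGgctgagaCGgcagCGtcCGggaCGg
Setdb1: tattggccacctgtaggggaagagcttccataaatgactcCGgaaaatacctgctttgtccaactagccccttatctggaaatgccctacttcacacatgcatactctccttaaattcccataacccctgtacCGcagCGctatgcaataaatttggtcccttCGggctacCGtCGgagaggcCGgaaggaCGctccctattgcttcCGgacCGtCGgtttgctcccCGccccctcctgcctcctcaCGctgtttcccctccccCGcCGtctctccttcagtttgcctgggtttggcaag
Trim28: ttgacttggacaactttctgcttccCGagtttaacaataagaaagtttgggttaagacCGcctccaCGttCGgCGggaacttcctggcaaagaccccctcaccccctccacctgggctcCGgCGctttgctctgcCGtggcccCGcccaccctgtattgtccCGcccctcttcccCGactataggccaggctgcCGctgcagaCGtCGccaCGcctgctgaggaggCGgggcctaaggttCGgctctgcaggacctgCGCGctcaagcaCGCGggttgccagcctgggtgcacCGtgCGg

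The marked Atf7ip window held 29 CpG, against 15 in Setdb1 and 23 in Trim28, while the median of 21263 RefSeq protein-coding promoter windows was 13. The 14 windows of the 10 genes ranged from 8 CpG, at the internal start of Cbx5, to 40, at the inner of the pair of Ehmt2 starts. The outer Cbx5 start, unmarked, had the same 29 CpG as Atf7ip. Each of the 14 windows matched mm9 exactly at 1 place. In mm9 the Atf7ip window lay at chr6:136467122-136467421, and all 300 of its bases fell inside a region shared by both replicates. The other 13 windows had 0 bases in a shared region.

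The Atf7ip window also held 2 copies of the octamer ATTTGCAT, the letters that POU factors such as Oct4 are known to bind, beginning 147 and 55 bases before the start site. The motif was chosen after the sequence had been read. Both strands were searched, and no other window of the 10 genes held it. It was present in 353 of the 21263 windows, 1.66%, and at least 2 times in 18 of them, 0.0847%. A match of letters in this window is not evidence of binding.

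Promoters were examined in mm9 as 1 kb either side of any GENCODE M1 transcript start. Of the 10 genes 1 had a region shared by both replicates there, against 5.54% of 22367 protein-coding genes. The same gene alone was marked in replicate 1 (6.33% of protein-coding genes), in replicate 2 (7.83%) and in the list of the whole series (8.47%). Within 1 kb of RefSeq starts in mm10 it was again 1 of 10, against 5.89% of 17492 protein-coding genes in the replicated list, 8.94% in the pooled list, 6.53% in replicate 1 and 8.27% in replicate 2. The gene was Atf7ip, where the region had a fold enrichment of 3.86 in replicate 1 and 5.39 in replicate 2, 4.63 ± 1.08 (SD, n = 2). Replicate 2 was the higher, as it was at 15 of the 17 shared mm9 regions near the 10 genes. Its median over all mm9 regions was higher too, 3.38 against 2.84 in replicate 1. Among 1239 marked protein-coding promoters the median was 3.77, and 66.4% were weaker than Atf7ip. GENCODE M1 has a second entry with the Atf7ip symbol near the 3′ end of the gene, and that entry was unmarked.

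The mm9 region at Atf7ip began 6.57 kb before the start site in both replicates. It ended 2.63 kb after the start in replicate 1 and 1.83 kb after it in replicate 2. In mm10 the peaks formed a block of nearly the same extent. The replicated list had 6 peaks there, from 6.57 kb before the start to 1.83 kb after it, with 7.73 kb in peaks and a highest fold enrichment of 9.67. Replicate 1 had 9 peaks with 6.27 kb in peaks and a highest value of 8.69, and replicate 2 had 5 peaks with 7.59 kb and 10.7.

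The peak lying on the Atf7ip start site itself was weaker than the strongest peak before it in each list. It had a fold enrichment of 5.35 and was 558 bp wide in the replicated list, with 4.42 and 232 bp in replicate 1 and 4.87 and 1030 bp in replicate 2. The 2 replicates differed in the promoter window shown above. Replicate 1 covered 107 of its 300 bases and replicate 2 all 300. With positions negative before the start, replicate 1 had no peak between -0.437 and -0.057 kb, and replicate 2 had none between -0.435 and -0.308 kb.

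Beyond its first 1.84 kb the Atf7ip gene, 92.1 kb long, was almost free of the mark. The replicated list had 5 peaks on the body, the farthest pair between 7.29 and 8.08 kb after the start, and they covered 2.14% of it. Replicate 1 covered 1.70% with 6 peaks and replicate 2 covered 2.16% with 4, of which 1 at a fold enrichment of 2.00 lay between 21.04 and 21.28 kb after the start. The start of Atf7ip also lies 98 bp from that of Gm44140, a noncoding RNA gene transcribed the other way, so the block covers both starts. Peaks of the replicated list covered 56.6% of Gm44140, with 43.9% in replicate 1 and 53.5% in replicate 2.

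**Figure D1:**
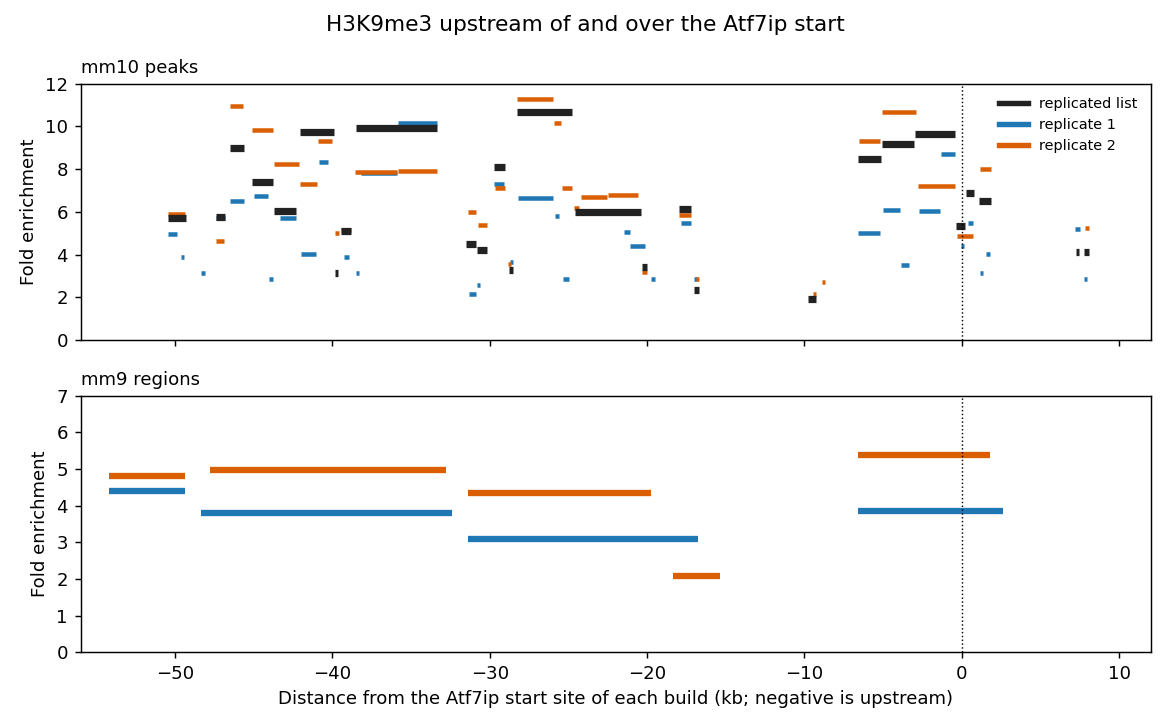
Fold enrichment of each mm10 peak (top, replicated list and both replicates) and each mm9 region (bottom, both replicates) by distance in kb from the Atf7ip start site of that build, where each bar spans a peak or region. The bars cluster over the start and between about 50 and 16 kb upstream, and on the gene side, drawn to 12 kb, they lie within the first few kb apart from small peaks near 8 kb.

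Upstream of Atf7ip the mark continued in long blocks. A block here is a run of replicated mm10 peaks with gaps of at most 1 kb. The longest spanned 14.1 kb with 8 peaks and ended 33.3 kb before the gene body, and the next spanned 11.5 kb with 7 peaks and ended 19.9 kb before it. The second held the strongest peak of the locus, 3.52 kb wide at a fold enrichment of 10.7, with 6.65 in replicate 1 and 11.3 in replicate 2, inside Gm44140. In all, 33.04% of the flanks of Atf7ip were covered by replicated peaks. Replicate 1 covered 26.7% and replicate 2 covered 31.6%, a mean of 29.1% ± 3.46 (SD, n = 2). In the replicated list 99.8% of protein-coding genes had less covered flanks. The median protein-coding gene had 1.87% of its flanks covered.

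Setdb1, the methyltransferase that Atf7ip binds, showed the mark on both sides but not on the gene. Its 33.7 kb body and its start sites had no peak in any list. Of its flanks 13.9% was covered by replicated peaks, with 9.89% in replicate 1 and 14.6% in replicate 2, a mean of 12.2% ± 3.33 (SD, n = 2). In the replicated list 95.6% of protein-coding genes had less and 4.36% had at least as much. The strongest mm10 peak within 50 kb of any of the 10 genes lay here, chr3:95305539-95312265, 6.73 kb wide and 11.3 kb beyond the 3′ end of Setdb1. Its fold enrichment was 20.8, with 15.2 in replicate 1 and 23.6 in replicate 2, and 99.8% of all replicated peaks were weaker. It lies in the neighbouring annexin gene Anxa9, whose body was covered over 35.2%, with 31.4% in replicate 1 and 36.1% in replicate 2. In mm9 the matching region had 6.21 in replicate 1 and 7.74 in replicate 2. The strongest shared mm9 region near the 10 genes lay instead near Suv39h2, at 7.66 and 11.5.

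On the other side of Setdb1 a 4.26 kb block with a fold enrichment of 13.5 stood 16.5 kb before the gene, at 10.4 in replicate 1 and 11.8 in replicate 2. A weaker block of 2.32 kb, 12.97 kb before the gene at 4.16, had no peak in replicate 1 and 6.01 in replicate 2. In mm9 the nearest shared region was 6.88 kb from a Setdb1 start. Its fold enrichment was 1.81 in replicate 1, and 3.99 in replicate 2, where the region is part of a wider one.

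The other writers were bare, and their distance from the mark varied. Suv39h1, on X, was farthest from a replicated peak, at 86.9 kb, and the nearest peak of replicate 1 was 401 kb away, against 86.9 kb for replicate 2. Ehmt2, on chromosome 17, was 66.2 kb from a replicated peak, with 66.3 kb in replicate 1 and 54.2 kb in replicate 2. The 13 other genes reaching into its 50 kb flanks all lie nearer to Ehmt2 than its nearest replicated peak. Their lack of a replicated peak therefore follows from that distance. In mm10 Suv39h2 had a lone peak 4.36 kb before its start, 431 bp wide at a fold enrichment of 3.90. The value was 3.64 in replicate 1 and 3.60 in replicate 2. A wider and stronger mm9 region in the same flank is described below.

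Ehmt1 was the longest of the 10 genes at 128.9 kb and still had no peak on its body in any mm10 list. Of 1774 protein-coding genes at least as long, 90.5% had a replicated peak on the body and 168, or 9.47%, had none. Ehmt1 stands at the lower length limit of that set. The share for genes close to its own length was not computed and may be lower. The nearest replicated peak to Ehmt1 lay 3.44 kb beyond its 3′ end. From its start site the nearest replicated peak, a different one, was 68.7 kb away. Flank coverage was 1.81%, with 1.48% in replicate 1 and 2.07% in replicate 2.

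The partner Trim28, a short gene of 6.88 kb, had no peak nearer than 32.8 kb, with 32.8 kb in replicate 1 and 33.1 kb in replicate 2. Its 3 replicated peaks all lay downstream and covered 2.37% of the flanks. The strongest reached 6.98, with 5.20 in replicate 1 and 7.31 in replicate 2.

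The HP1 readers were unmarked, and Cbx3 had the most covered flanks of the 3. Cbx3, HP1 gamma, had 6.55% of its flanks covered, with 5.85% in replicate 1 and 5.90% in replicate 2, and 82.7% of protein-coding genes had less. A 3.44 kb block began 1.98 kb beyond its 3′ end, at a fold enrichment of 7.25, with 5.46 in replicate 1 and 8.48 in replicate 2. The strongest peak, at 7.35, lay upstream inside the transcription factor gene Nfe2l3. Cbx1, HP1 beta, had 1 replicated peak in its flanks, 306 bp wide at 3.38 and 33.2 kb upstream, inside Skap1, a T cell adaptor gene. Cbx5, HP1 alpha, had 1 as well, 434 bp wide at 4.05 and 49.5 kb downstream, in the noncoding RNA gene D930007P13Rik.

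**Figure D2:**
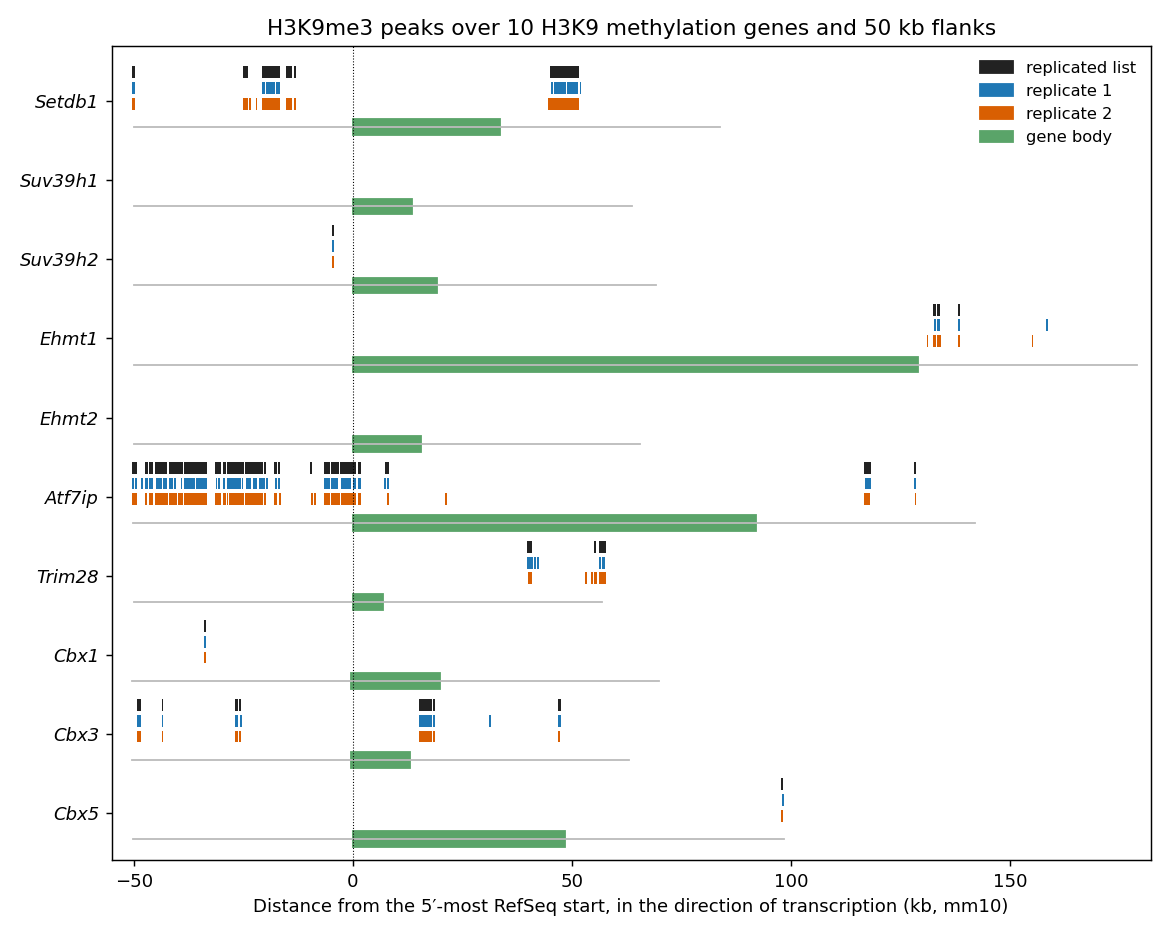
Peaks of the replicated list and of both replicates over each of the 10 genes and 50 kb on either side, by distance in kb from the RefSeq start that lies farthest 5′, read in the direction of transcription (mm10). Green boxes are gene bodies, and peaks narrower than 0.4 kb are drawn at that width. Peaks touch the gene body at Atf7ip alone, and Suv39h1 and Ehmt2 have none in view.

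**Figure D3:**
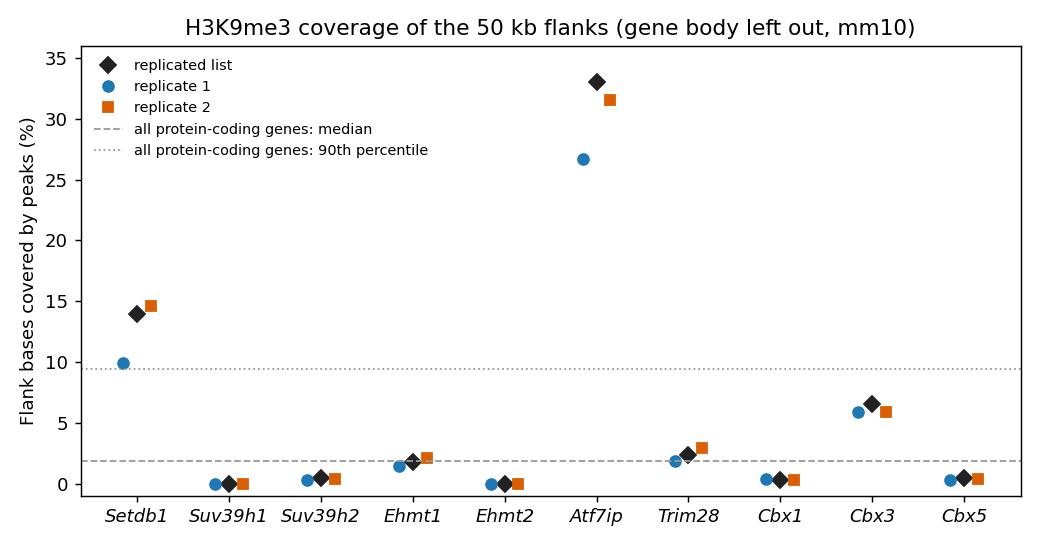
Percent of the 50 kb flanks, gene body left out, covered by peaks of the replicated list, replicate 1 and replicate 2 for each gene. Lines are the median (1.87%) and the 90th percentile (9.42%) of all protein-coding genes, from the replicated list alone. Atf7ip and Setdb1 lie above the upper line in both replicates, and Cbx3 lies between the lines in both, with Trim28 above the lower line. In replicate 1, Setdb1 (9.89%) and Trim28 (1.89%) lie just above these lines, which do not come from that list.

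Over all 10 genes, 1 had a replicated peak on the body, against 30.8% of protein-coding genes. It was also 1 in replicate 1 (34.1% of protein-coding genes), replicate 2 (35.9%) and the pooled list (38.0%). Among protein-coding genes between the shortest and the longest of the 10 in length, it was 33.8%. Of the summed body sequence 0.502% was covered, against 2.30% over all protein-coding genes, and Atf7ip held all of it. With the flanks, 8 of the 10 had a replicated peak, against 83.3% of protein-coding genes, so this count stood near the background. It was 8 as well in replicate 1 (85.7%), replicate 2 (87.4%) and the pooled list (89.0%). The median distance from a gene body to the nearest replicated peak was 22.0 kb, against 8.54 kb. Distances ran from 0 for Atf7ip to 86.9 kb for Suv39h1. Atf7ip and Setdb1 together held 80.4% of the 60.8 kb covered in the 10 loci. These are descriptions of a list chosen with earlier results known, and no test was made.

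**Figure D4:**
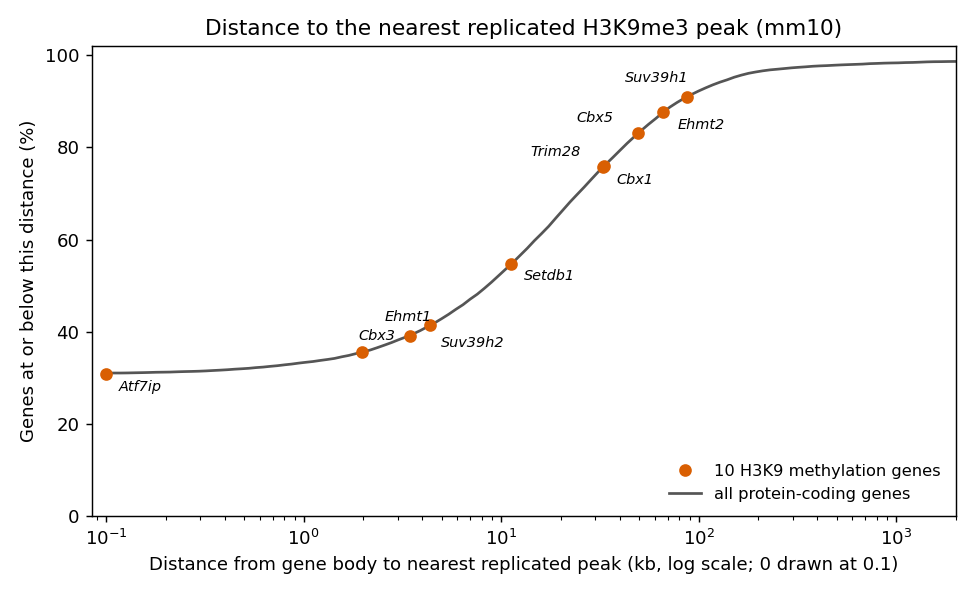
Share of genes (%) whose nearest replicated mm10 peak lies at or below a distance from the gene body (kb, log scale), with the 10 H3K9 methylation genes as labelled points on the curve of all 21887 protein-coding genes. Atf7ip is at 0, Cbx3, Ehmt1 and Suv39h2 lie within 5 kb, and 5 of the 10 lie beyond 30 kb.

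Most blocks near the 10 genes were short. Of 26 blocks, 14 had no RefSeq gene under them, 14 were single peaks and 4 spanned over 5 kb, 3 of these at Atf7ip and 1 at Setdb1. The other 12 lay at least partly on a RefSeq gene. In 23 of the 26 both replicates had a peak. That is partly built in, since the replicated list derives from the pooled and per-sample lists. Replicate 2 had the higher fold enrichment in 21 of these 23 blocks. Over all mm10 peaks the median was also higher in replicate 2, 3.83 against 3.38. Of 68 other RefSeq genes reaching into the loci, 11 had a replicated peak on the body, 5 of them near Atf7ip. The 68 include noncoding genes and pseudogenes. The share over all RefSeq genes was not computed, so the count cannot be called high or low.

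The sequence under the mark differed between loci. A 16-base sequence was called high-copy when it was present at least 50 times on the assembled mm9 chromosomes, both strands counted together, and 18.7% of genome bases begin such a sequence. In the shared region over the Atf7ip start 11.02% of bases did, and over the 6 shared regions at that locus 13.2%, against 13.9% in the rest of the locus. At Setdb1 it was 47.9% in the 5 shared regions and 19.7% in the rest. The region matching the strongest Setdb1 peak had 19.3%, while the region nearest the Setdb1 start had 90.6%. Over the 10 loci, 4 of the 17 shared regions were more than 50% high-copy. The share over all shared mm9 regions was not computed, so that count has no background.

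The most repetitive of these regions lay near Suv39h2. In mm9 it ran from 8.50 kb before the Suv39h2 start over 5.40 kb, at a fold enrichment of 7.66 in replicate 1 and 11.5 in replicate 2, and 93.7% of it was high-copy. In mm10 the same flank held the 431 bp peak already described and nothing else. Near Cbx1 an mm9 region of 0.6 kb at 7.10 in replicate 1 and 7.69 in replicate 2 was 65.3% high-copy, and in mm10 no list had a peak on that side. The labels do not say how reads mapping to several places were handled in each build. The part of high-copy sequence in these differences was not tested.

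**Figure D5:**
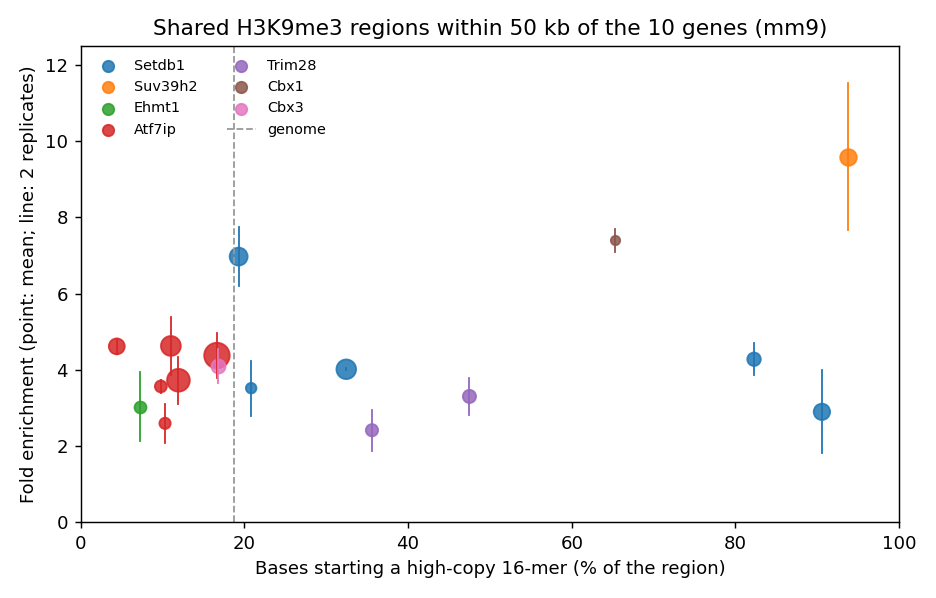
Fold enrichment of the 17 shared mm9 regions within 50 kb of the 10 genes against the percent of bases in each that begin a high-copy 16-base sequence. Points are means of 2 replicates with area growing with width, vertical lines join the replicates, colours give the nearby gene and the dashed line is the genome (18.7%). The Atf7ip regions lie at 16.7% or less, and the Suv39h2 region lies at 93.7%.

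Other genes of H3K9 methylation had peaks on their bodies at a share close to that of protein-coding genes. Of 31 further writers, erasers, readers and partners, 1, or 3.23%, had a shared mm9 region at a promoter (5.54% of protein-coding genes). A replicated mm10 peak lay on the body of 10, or 32.3% (30.8%). The body shares were not matched for length. The median length was 62.4 kb for the 31 genes and 17.2 kb for all protein-coding genes. Of protein-coding genes at least as long as Ehmt1, 128.9 kb, 90.5% had a replicated peak on the body. That length is above the median of the 31 genes, so this share is not a background for them. By role these 10 were 3 of 4 other writers, 1 of 11 erasers, 2 of 4 HUSH complex genes, 2 of 7 other readers or partners, 1 of 3 DNA methyltransferases and 1 of 2 KRAB zinc finger recruiters. Each role holds few genes, and their lengths differ, so these counts do not rank the roles. The most covered bodies were those of Zfp809, which recruits Trim28 to proviral sequence, at 15.2%, the chromodomain gene Cdyl2 at 13.1% and the histone demethylase gene Phf8 at 5.99%. Replicates 1 and 2 covered 14.8% and 11.9% of Zfp809, 10.7% and 11.2% of Cdyl2 and 3.96% and 6.79% of Phf8.

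The marked promoter among these 31 was that of Wiz, a zinc finger partner of Ehmt2 and Ehmt1, and the builds differed there. In mm9 a 7.2 kb region with a fold enrichment of 3.39 in replicate 1 and 5.69 in replicate 2 lay within 1 kb of 1 of the 14 Wiz transcript starts, and not of the start at the 5′ end. Of that region 85.2% was high-copy. In mm10 no list had a peak on Wiz, and the nearest peak was 47.8 kb away in the replicated list and in replicate 2, but 4.35 kb away in replicate 1.

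Genes of the Polycomb system, which writes and reads a different silencing mark, were taken as a further comparison. Of 14, 0 had a shared mm9 region at a promoter, against 5.54% of protein-coding genes. A replicated peak lay on the body of 4, or 28.6%, against 30.8%, so both counts stood near the background. The ubiquitin ligase gene Ring1 was covered over 31.2% of its 3.89 kb, and Bmi1, another Polycomb subunit gene, over 4.75%. The median distance to a replicated peak was 22.0 kb for the 10 genes, 6.59 kb for the 31 further H3K9 genes and 8.22 kb for the Polycomb genes. No test of these differences was made, and gene lengths differed, with medians of 19.7, 62.4 and 28.96 kb.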

How the data were processed

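H3K9me3 ChIP-seq peak lists of 2 biological replicates were used as deposited. Per the file lists deposited with the samples, the pooled mm10 list derives from both alignments, and the replicated list from the pooled and per-sample lists. Each peak's fold enrichment, a linear ratio, was set by the authors, and no label states its denominator. In mm10 the peaks carry deposited −log10 p and q values, and in mm9 the authors gave linear p-values and q-values. For the aligner and peak caller, the sources used here give no name. Whether the mm9 list of the whole series pools the replicates is not stated.

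Covered bases, peak counts and distances were computed in Python 3.11.15 with numpy 2.4.6, using RefSeq genes and start sites of GRCm38.p6 for mm10 and GENCODE M1 for mm9. An overlap of at least 1 bp counted, and promoters were 1 kb either side of a start. Unplaced sequence was left out, and no coordinates were converted. The interval and 16-mer code was tested on simulated data. No p-value was computed, since 1 group gives no contrast.

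The members and lists were chosen with earlier results of these data known. All 10 members were named. Outside them, the genes named were those with a marked promoter, the 3 most covered per list (1 of them is not reported here), and genes under the strongest peak of a locus. Gm44140 was also named for its start beside that of Atf7ip. Alternatives were other lists, a fold enrichment of at least 4, −log10 q of at least 2, merging within 1 kb, other windows and flanks, and larger overlaps.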

Additional observations from a re-analysis of the deposited data

How the results depend on the processing

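Of 54 comparisons of the summary results with an alternative, 41 moved by less than the spread between replicates or, for counts, by at most 1.5 times. Some of the 41 could not have moved. Promoter strength is the mean of both replicates, so leaving out either stays within their SD. Its base-weighted mean could not differ, as each replicate had 1 region there. The count of genes with a peak on the body was 1 under every alternative run. The count with a marked mm9 promoter was 1 under every alternative but a fold enrichment of at least 4 in each replicate, where it was 0, since Atf7ip had 3.86 in replicate 1. Leaving out a replicate gave 1 gene for both counts, 8 genes with a peak within the flanks, a promoter strength of 3.86 to 5.39, 0.399% to 0.508% of body bases covered, 3.47% to 4.31% of bases with flanks, and a median distance of 21.9 to 22.2 kb. Body coverage, 0.502%, became 0.619% with the pooled list, 0.302% with bases in both per-sample lists and 0.686% with peaks within 1 kb merged. Coverage with flanks, 4.37%, became 3.14% with bases in both per-sample lists, 2.41% with flanks of 10 kb and 5.56% with mm9 shared bases. The median distance of 22.0 kb became 21.8 kb with the pooled list, 22.3 kb with bases in both per-sample lists and 49.4 kb at a fold enrichment of at least 4. With flanks of 10 kb, 4 genes had a peak in place of 8. The share of all protein-coding genes was not computed for flanks of 10 kb, so that count has no background. Stricter or narrower settings hold fewer bases by construction, and the cause of the other changes was not tested. Under the 7 other mm10 settings that keep flanks of 50 kb, Atf7ip, Setdb1 and Cbx3 had the most covered flanks, in that order. Setdb1, 11.3 kb from its nearest replicated peak, has no coverage in flanks of 10 kb. No paired analysis was possible because there is 1 group. Depth is unknown, so a gene without a peak is one where none was called, not one shown to lack the mark.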
